A study of Mus musculus with 6 samples.

Results

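The 10 genes described here are the insulin-like growth factor (IGF) system as it could be read in sinusoidal endothelial cells (SECs) of fibrotic mouse liver: the ligand gene Igf1, the receptor genes Igf1r and Igf2r, and the IGF-binding protein genes Igfbp1 to Igfbp7. They were chosen by name from the 41799 genes of the count table, all 10 were found, and all 10 were among the 15404 genes with enough reads to be tested. RNA was sequenced from SECs of 3 RBPj knock-out samples and 3 control samples. In the knock-out group RBPj, the DNA-binding protein through which Notch receptors act on transcription, was deleted in endothelium by tamoxifen, and the labels describe the same tamoxifen course for all samples (2 mg per 20 g of body weight, daily for 7 days, starting at 4 to 6 weeks of age). After 1 week of rest, liver fibrosis was induced in both groups with carbon tetrachloride (CCl4, 15% in olive oil, 0.6 μl for each g of mouse, 2 times a week for 6 weeks), so no value comes from an uninjured liver. All mice were male, 12 to 14 weeks old, with the strain given as C57BL/6 for the controls and knock-out replicate 1, C57BL/7 for knock-out replicate 2 and C57BL/8 for knock-out replicate 3. The sources used here do not give the Cre line or the genotype of the controls. The labels do not say whether replicates are different mice, and the p-values therefore cover only the spread among these libraries, which may be technical.

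IGF ligands act through the IGF1 receptor, a tyrosine kinase that signals through insulin receptor substrates and AKT. IGF-binding proteins hold most IGF outside cells, where proteases release it. The IGF2 receptor carries no kinase and instead takes up IGF2 and sorts mannose 6-phosphate-tagged enzymes to lysosomes. In liver, hepatocytes make most circulating IGF1 under growth hormone, and the other cell types contribute binding proteins.

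No gene of the IGF system passed an adjusted p of 0.05 in the edgeR test of knock-out against control. Igfbp4 and Igfbp6 were higher and Igfbp3 was lower in every knock-out library than in any control library, and the other 7 genes overlapped between the groups. The median log2 fold change of the 10 genes was -0.01, with 5 of them above 0, beside a median of -0.03 over all tested genes. Over all tested genes 0.195% were called (16 higher and 14 lower in knock-outs). Groups without overlap were found with the knock-out higher in 13.2% of tested genes, beside 2 of 10 here, and with the knock-out lower in 11.7%, beside 1 of 10. An unadjusted p under 0.05 was given to 17.5% of tested genes by edgeR and to the same 3 of the 10. These shares are near those of all genes, and nothing is read from them about the list.

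The targeted gene and the make-up of the libraries were looked at first. Rbpj read 11.6, 8.10 and 11.9 normalized CPM (counts brought to one library size) in knock-out replicates 1, 2 and 3, against 18.6, 14.5 and 16.4 CPM in control replicates 1, 2 and 3. Every knock-out library was below every control library, with a log2 fold change of -0.64 ± 0.19 (SE) that did not pass the edgeR threshold (adjusted p = 0.187). Total counts were 10372195 to 12326770 per library, and 3 counts corresponded to 0.232 to 0.320 CPM. The 14 sinusoidal endothelial markers checked were all detected and summed to 23353 to 28782 CPM in knock-outs and 15580 to 22243 CPM in controls. The libraries also held markers of other cells. The 14 stellate cell markers summed to 1829 to 7769 CPM in knock-outs and 5540 to 15669 CPM in controls. Of these markers 9 of 14 were lower in knock-outs without overlap, beside 11.7% of all tested genes. The 12 macrophage markers summed to 789 to 3111 and 2576 to 4924 CPM in knock-outs and controls, and the 15 hepatocyte markers to 379 to 5505 and 759 to 3293 CPM. Of the macrophage markers 2 were lower in knock-outs without overlap, and of the hepatocyte markers 0 were apart in either direction. The 13 lymphocyte and neutrophil markers summed to 478 to 3383 CPM in knock-outs and 248 to 14706 CPM in controls, where control replicate 1 stood apart. In that library S100a8, a neutrophil gene, read 5794 CPM and Cd3e, a lymphocyte gene, 1.28 CPM. No listed marker of these 5 lists was at 0 in every library. In these bulk samples fewer cells of a type and less RNA per cell cannot be told apart.

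Compared per length of transcript, in RPKM (reads scaled to gene length and library size), the family was dominated by a pair of genes. Igfbp7, which encodes a secreted protein of the vascular basement membrane that binds IGF weakly, averaged 2020 ± 456 RPKM in knock-outs and 2359 ± 356 RPKM in controls (SD, n = 3 each), the 9th highest level among the tested genes. Igfbp4, which encodes a secreted inhibitor of IGF action, averaged 764 ± 154 RPKM in knock-outs and 525 ± 17.5 RPKM in controls, the 36th highest. Igfbp3, which encodes the main IGF carrier of blood, came next with 25.0 ± 17.0 RPKM in knock-outs and 198 ± 193 RPKM in controls. The remaining 7 genes had lower means. The place of Igfbp3 was not firm either, since in knock-out replicate 1 it read 6.29 RPKM, below Igfbp6 (25.5), Igfbp1 (19.4), Igfbp5 (17.2), Igf1r (10.4) and Igf2r (8.51 RPKM). Igfbp5 averaged 14.3 ± 2.67 RPKM in knock-outs and 17.2 ± 2.54 RPKM in controls, and Igfbp6 15.0 ± 9.14 and 6.11 ± 1.52 RPKM. The receptor genes were close to each other, with Igf1r at 9.61 and 9.04 RPKM and Igf2r at 7.51 and 7.27 RPKM in knock-outs and controls. Igf1 averaged 3.62 and 7.74 RPKM, Igfbp1 8.54 ± 9.83 and 3.46 ± 2.12 RPKM, and Igfbp2 1.94 and 2.01 RPKM, in knock-outs and controls. Over the 6 libraries the ranges of neighbours in this order overlapped among these 7, and their order is not firm. Together the 10 genes took 0.363%, 0.493% and 0.511% of all counts in the knock-out libraries, against 0.372%, 0.466% and 0.557% in the control libraries.

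Since RBPj binds DNA, the windows around the annotated start sites of the genes that did not overlap, and of the IGF1 receptor gene, are shown from RefSeq (GRCm38.p6, 250 bases before to 50 after the start, read 5′ to 3′ on the strand of the gene). They lie at chr11:7213874-7214173 (minus strand) for Igfbp3, chr11:99040994-99041293 (plus) for Igfbp4, chr15:102143936-102144235 (plus) for Igfbp6 and chr7:67952007-67952306 (plus) for Igf1r. Capitals mark the letters TGGGAA, the core of the RBPJ site, searched on both strands.
Igfbp3: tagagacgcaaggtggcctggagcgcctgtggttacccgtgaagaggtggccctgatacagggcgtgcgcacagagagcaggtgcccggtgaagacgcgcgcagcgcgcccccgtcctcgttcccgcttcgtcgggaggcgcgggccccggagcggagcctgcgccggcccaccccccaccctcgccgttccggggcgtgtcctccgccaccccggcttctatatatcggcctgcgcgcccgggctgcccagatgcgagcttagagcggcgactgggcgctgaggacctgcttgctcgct
Igfbp4: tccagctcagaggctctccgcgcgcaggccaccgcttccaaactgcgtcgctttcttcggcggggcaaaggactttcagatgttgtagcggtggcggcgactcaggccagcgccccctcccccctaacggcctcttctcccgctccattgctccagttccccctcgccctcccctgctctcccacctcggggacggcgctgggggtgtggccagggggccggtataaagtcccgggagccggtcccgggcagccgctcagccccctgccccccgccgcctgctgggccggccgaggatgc
Igfbp6: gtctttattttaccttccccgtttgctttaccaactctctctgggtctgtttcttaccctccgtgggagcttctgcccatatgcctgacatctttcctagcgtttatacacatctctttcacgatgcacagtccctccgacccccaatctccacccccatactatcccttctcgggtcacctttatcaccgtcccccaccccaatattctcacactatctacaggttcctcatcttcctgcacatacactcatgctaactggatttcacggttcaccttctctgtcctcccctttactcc
Igf1r: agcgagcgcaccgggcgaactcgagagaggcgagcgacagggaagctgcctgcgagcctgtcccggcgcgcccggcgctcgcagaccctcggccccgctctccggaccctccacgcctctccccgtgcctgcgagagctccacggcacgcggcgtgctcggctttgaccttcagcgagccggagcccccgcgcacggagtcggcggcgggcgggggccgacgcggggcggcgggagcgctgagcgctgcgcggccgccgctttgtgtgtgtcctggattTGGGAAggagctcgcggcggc
The core was found in 25.6% of 32851 such windows of the mouse genome. Among the 10 genes it was found in the Igf1r window, 30 bases after the start on the plus strand, and in the Igf1 window, 91 bases before the start on the minus strand, and in no IGFBP window. The longer form GTGGGAA (6.38% of all windows) was found in none of them. Nor was GTAAACA (3.65%), one form of the FOXO site, read by transcription factors that insulin and IGF signalling holds out of the nucleus. Other forms of the FOXO site were not searched. A match is a description of letters, and no match says only that these letters are not in these windows. The Igf1 window (chr10:87860861-87861160, plus) lies within the Igf1 gene span of the count table, which begins at 87858270. Its start site is therefore internal to that span.

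Igf1 encodes the ligand and lies on chromosome 10 from 87858270 to 87937047 (mm10). It read 45.3, 17.7 and 34.4 CPM in the knock-out libraries, against 27.3, 87.0 and 93.8 CPM in the control libraries. Control replicate 1 was within the knock-out range and the other controls were above it. The log2 fold change was -1.10 ± 0.55 (95% interval -2.44 to 0.25, edgeR adjusted p = 0.359). Without control replicate 1 the value was -1.48 (edgeR adjusted p = 0.194). The groups could only be apart then, because the sole overlapping control was the library left out. Over all leave-one-out fits the value ran from -1.48 to -0.80. Igf1 varied with the macrophage markers, of which it amounted to 1.46%, 2.24% and 2.72% of the summed CPM in knock-outs and 1.06%, 2.55% and 1.91% in controls, so that the groups overlapped on this measure. The part of these markers in the result was not tested. The genes whose levels were most like those of Igf1 over the 6 libraries were Ly9 (Pearson r = 0.997), a receptor of immune cells, and Cd63-ps (r = 0.995), out of 8474 genes compared. Igf2, the gene of the other IGF ligand, was read at 0.818, 1.56 and 2.79 CPM in knock-outs, against 2.35, 2.03 and 3.04 CPM in controls, a few times the level of 3 counts.

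The receptor genes overlapped between the groups. Igf1r (chromosome 7 from 67952257 to 68233668) read 127, 118 and 107 CPM in knock-outs, against 158, 87.4 and 85.7 CPM in controls, where control replicate 1 was above all other libraries. Its log2 fold change was 0.09 ± 0.26 (95% interval -0.54 to 0.71, edgeR adjusted p = 0.884). Without control replicate 1 the value was 0.44 (edgeR adjusted p = 0.173). The remaining controls already lay below every knock-out library, so leaving out this control could only set the groups apart. The sum of the lymphocyte and neutrophil markers was high in control replicate 1 (14706 CPM) and, among knock-outs, in replicate 1 (3383 CPM). A large part of it came from S100a8, a neutrophil gene, at 5794 CPM in that control and 1115 CPM in that knock-out. The lymphocyte markers Cd3e (1.28 CPM) and Cd8a (3.52 CPM) were not high in control replicate 1. As a share of the whole sum Igf1r amounted to 3.74%, 20.1% and 22.5% in knock-outs and 1.08%, 35.2% and 27.5% in controls, which overlapped. Igf2r read 84.9, 68.0 and 71.7 CPM in knock-outs, against 62.0, 82.4 and 73.1 CPM in controls. The log2 fold change was 0.05 ± 0.14 (95% interval -0.30 to 0.40, edgeR adjusted p = 0.894), the narrowest interval of the 10 genes. The genes most like Igf1r over the 6 libraries were Xpo6 (r = 0.992), which encodes a nuclear exporter of actin, and Arid5a (r = 0.989), and those most like Igf2r were Sulf2 (r = 0.968), which encodes a sulfatase of heparan sulfate, and Hmox1 (r = 0.961), which encodes heme oxygenase. The table places Igf2r on an unplaced scaffold and not on chromosome 17, where RefSeq has it, and its overlapping antisense gene Airn had 1 count in all libraries.

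Among the binding proteins, Igfbp3 had the largest difference of the 10. Igfbp3 (chromosome 11 from 7206086 to 7213931, minus strand) was read 170, 1187 and 921 times in knock-outs, against 1931, 2586 and 10903 times in controls. In normalized units these were 15.5, 97.2 and 71.4 CPM in knock-outs, against 206, 218 and 1034 CPM in controls. All knock-out libraries were lower than all control libraries, and within each group 1 library stood well away from the others, knock-out replicate 1 below and control replicate 3 above. The log2 fold change was -2.99 ± 0.95 (95% interval -5.33 to -0.64), 7.92-fold lower in knock-outs, and it did not pass the edgeR threshold (adjusted p = 0.212). DESeq2, run beside it, placed Igfbp3 past the threshold with an adjusted p of 0.0468 and a log2 fold change of -2.98, the sole call of any of the 10 genes under any alternative. Without control replicate 3 the edgeR value was -1.79 (adjusted p = 0.397).

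Igfbp3 moved with the markers of hepatic stellate cells, the vitamin A-storing cells that turn into myofibroblasts in fibrosis. These markers were lowest in knock-out replicate 1 (1829 CPM) and highest in control replicate 3 (15669 CPM), the same libraries in which Igfbp3 was lowest and highest. Lrat, which encodes the enzyme that esterifies retinol in stellate cells, read 11.1, 72.2 and 58.2 CPM in knock-outs, against 105, 122 and 441 CPM in controls. Reln, another stellate cell marker of mouse liver, read 58.4, 461 and 282 CPM in knock-outs, against 638, 635 and 1763 CPM in controls. As a share of the summed stellate markers Igfbp3 amounted to 0.845%, 1.25% and 1.33% in knock-outs, against 3.72%, 2.29% and 6.60% in controls. The groups remained apart on this measure, but the sum leans on abundant collagen genes. Col3a1 averaged 1932 CPM in knock-outs and 3300 CPM in controls. Log2 fold changes were -0.76 (Col1a1), -0.89 (Col1a2) and -0.77 (Col3a1), against -2.24 for Lrat. The size of the gap on this measure therefore depends on which markers are summed. Shares of other marker sums were not computed. The genes most like Igfbp3 were Arhgap42 (r = 0.999) and Cadm3 (r = 0.999), which encodes a cell adhesion molecule. The part of stellate cells in the Igfbp3 values was not tested beyond these measures.

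**Figure D1:**
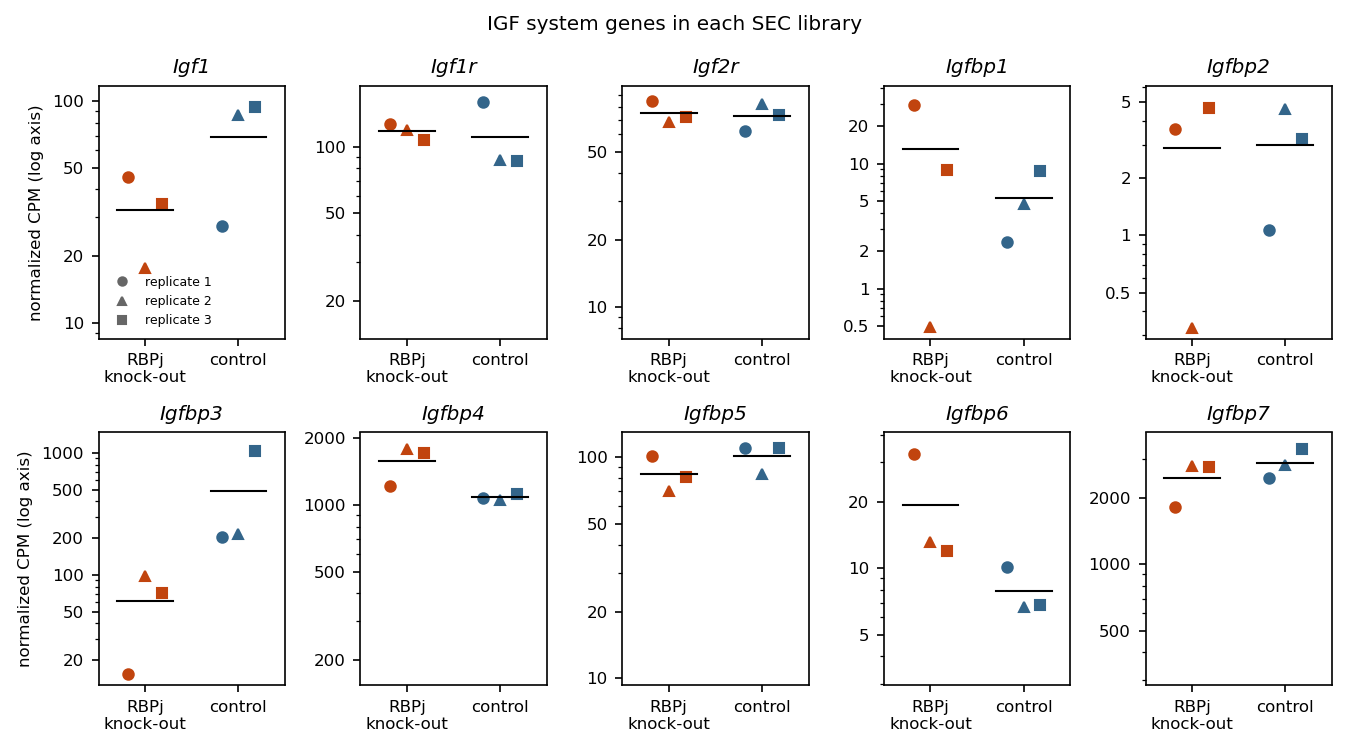
Normalized CPM (log axis) of the 10 IGF system genes in each library, with RBPj knock-out libraries in orange and control libraries in blue, symbols for replicates 1 to 3 and a line at each group mean (n = 3). Igfbp4 and Igfbp6 were higher and Igfbp3 was lower in all 3 knock-out libraries, and the other 7 genes overlapped.

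Of the pair of abundant genes, Igfbp4 did not overlap between the groups, without passing the test. Igfbp4 (chromosome 11 from 99041260 to 99052646) read 1215, 1800 and 1726 CPM in knock-outs, against 1079, 1055 and 1126 CPM in controls. The controls lay close together, and knock-out replicate 1 was nearest to them. For Igfbp4 the log2 fold change was 0.54 ± 0.18 (95% interval 0.10 to 0.98), 1.45-fold higher in knock-outs, and it missed the edgeR threshold (adjusted p = 0.220). The summed endothelial markers were also higher in the knock-out libraries, with 0 called by edgeR. Of these 14 markers 6 were higher and 1 was lower without overlap, beside 13.2% and 11.7% of all tested genes. Stab2, a scavenger receptor gene and the largest of them in the knock-outs on average, read 5030, 5077 and 3936 CPM in knock-outs, against 2855, 2843 and 2021 CPM in controls. Clec4g, a lectin gene of SECs, went the other way with 607, 1043 and 955 CPM in knock-outs, against 2057, 1900 and 1375 CPM in controls (log2 fold change -1.03, edgeR adjusted p = 0.149). As a share of their summed CPM, Igfbp4 amounted to 5.20%, 6.25% and 7.11% in knock-outs and 4.98%, 4.74% and 7.23% in controls, which overlapped. The genes most like Igfbp4 were Nr2f1 (r = 0.993), which encodes the nuclear receptor COUP-TFI, and Dbp (r = 0.991), which encodes a transcription factor that cycles with the circadian clock.

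Igfbp7 (chromosome 5 from 77349240 to 77408045, minus strand) read 1813, 2792 and 2746 CPM in knock-outs, against 2463, 2802 and 3321 CPM in controls. The groups overlapped, with knock-out replicate 1 lowest and control replicate 3 highest. Its log2 fold change was -0.22 ± 0.23 (95% interval -0.77 to 0.32, edgeR adjusted p = 0.634). As a share of the endothelial markers Igfbp7 amounted to 7.76%, 9.70% and 11.3% in knock-outs, against 11.4%, 12.6% and 21.3% in controls, lower without overlap. Most like Igfbp7 in level were Fam189a2 (r = 0.998) and LOC105243919 (r = 0.997). On the opposite strand Igfbp7 overlaps Polr2b, a subunit gene of RNA polymerase II, with 10505 counts in all libraries beside 180804 for Igfbp7. The sources used here do not say whether counting used strand.

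The level of Igfbp4 relative to Igfbp7, which does not depend on how the libraries are scaled, set the groups apart. The log2 ratio of their RPKM was -1.35, -1.40 and -1.44 in knock-outs, against -1.96, -2.18 and -2.33 in controls. Neither group spread as far as the gap to its nearest neighbour in the other, though this ratio was chosen after the values were seen and is given without a test. Of the summed RPKM of the 7 IGFBP genes, Igfbp4 made up 27.3%, 26.9% and 26.4% in knock-outs, against 19.6%, 17.4% and 14.6% in controls. Igfbp7 made up 69.4%, 71.2% and 71.7% in knock-outs, against 76.2%, 78.7% and 73.3% in controls. Igfbp3 made up 0.292%, 1.22% and 0.920% in knock-outs, against 3.15%, 3.03% and 11.3% in controls. All 3 of these shares separated the groups, while the other 4 IGFBP genes made up what was left. The shares are parts of one sum, so they are not 3 separate results. A higher share of Igfbp4 leaves less for Igfbp7, whose own CPM overlapped between the groups.

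**Figure D2:**
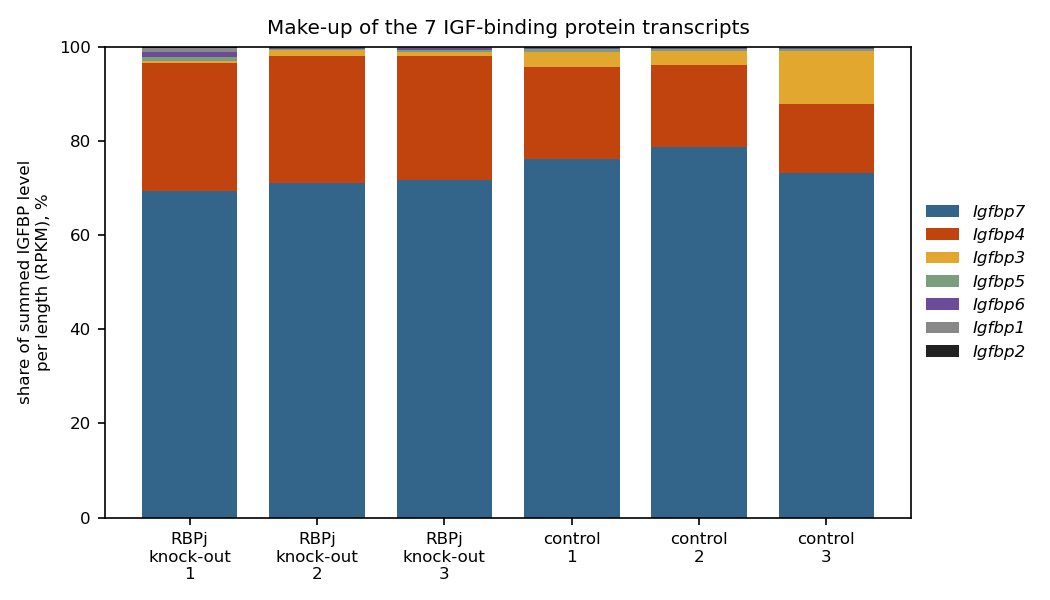
Share of the summed RPKM of the 7 IGFBP genes taken by each gene (%, stacked bars from 0 to 100) in each of the 6 libraries, RBPj knock-outs left and controls right. Igfbp4 took 26.4% to 27.3% in knock-outs and 14.6% to 19.6% in controls, and Igfbp3 reached 11.3% in control replicate 3.

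Igfbp6 encodes a binding protein that prefers IGF2 over IGF1 and lies on chromosome 15 from 102144186 to 102149512. It read 32.9, 13.1 and 11.9 CPM in knock-outs, against 10.1, 6.67 and 6.83 CPM in controls. All knock-outs were above all controls, and knock-out replicate 1 was far above the rest. The log2 fold change was 1.29 ± 0.45 (95% interval 0.20 to 2.39), 2.45-fold higher, and it did not pass the edgeR threshold (adjusted p = 0.232). Without knock-out replicate 1 it was 0.68 (edgeR adjusted p = 0.207).

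Igfbp6 varied with 3 of the markers of the mesothelium, the cell layer that covers the liver. The sum of Msln, Upk1b and Upk3b, which encode mesothelin and a pair of uroplakins, was 70.7, 40.9 and 38.3 CPM in knock-outs, against 30.5, 25.0 and 18.7 CPM in controls. These markers were picked after their values were seen, from a list of 12 portal fibroblast and mesothelial markers that summed to 492 to 528 CPM in knock-outs and 414 to 471 CPM in controls. Other mesothelial markers of that list overlapped between the groups. Gpm6a read 32.4, 16.0 and 23.5 CPM in knock-outs and 34.1, 16.9 and 18.6 CPM in controls, and Wt1 14.4, 9.90 and 7.75 CPM in knock-outs and 8.21, 4.39 and 12.3 CPM in controls. As a share of the whole list Igfbp6 amounted to 6.68%, 2.48% and 2.27% in knock-outs and 2.39%, 1.61% and 1.45% in controls, where knock-out replicate 3 was below control replicate 1. Most of that list sum was Gas6, with 330, 410 and 409 CPM in knock-outs and 321, 319 and 345 CPM in controls. Relative to the 3 markers Igfbp6 amounted to 46.5%, 32.0% and 31.2% in knock-outs and 33.2%, 26.7% and 36.5% in controls, and the groups overlapped. The part of mesothelial cells in the Igfbp6 values was not tested. The genes most like Igfbp6 were Csrp2 (r = 0.992), which encodes a LIM protein of muscle-like cells, and Zfand5 (r = 0.983), which encodes a zinc finger protein.

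Igfbp5, whose protein also binds extracellular matrix, read 101, 69.7 and 81.3 CPM in knock-outs, against 109, 83.6 and 109 CPM in controls. Its log2 fold change was -0.26 ± 0.18 (95% interval -0.69 to 0.16, edgeR adjusted p = 0.474), with overlap between the groups. Most like Igfbp5 in level were Adipor2 (r = 0.989), which encodes an adiponectin receptor, and Lonp2 (r = 0.988), which encodes a peroxisomal protease. Its neighbour Igfbp2 lies tail to tail with it on chromosome 1, 5590 bases away, and encodes a binding protein secreted by hepatocytes. Igfbp2 read 3.64, 0.327 and 4.65 CPM in knock-outs, against 1.07, 4.64 and 3.23 CPM in controls. For Igfbp2 the log2 fold change was -0.06 ± 0.90 (95% interval -2.27 to 2.14, edgeR adjusted p = 0.977), an interval too wide to place the gene.

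Igfbp1, which encodes a binding protein that hepatocytes make when insulin is low, is the neighbour of Igfbp3 on chromosome 11, 3539 bases away and also tail to tail. It read 29.5, 0.491 and 8.91 CPM in knock-outs, against 2.35, 4.73 and 8.73 CPM in controls. Knock-out replicate 1 was the highest and knock-out replicate 2 the lowest of all libraries. For Igfbp1 the log2 fold change was 1.29 ± 1.20 (95% interval -1.65 to 4.23, edgeR adjusted p = 0.607), and it was -0.15 without knock-out replicate 1. The hepatocyte markers had the same extremes, 5505 CPM in knock-out replicate 1 and 379 CPM in knock-out replicate 2. Relative to them Igfbp1 amounted to 0.537%, 0.130% and 0.340% in knock-outs and 0.309%, 0.228% and 0.265% in controls. The genes most like Igfbp1 were Fgb and Arg1 (r = 0.992 each), which encode a fibrinogen chain and the urea cycle enzyme arginase. For Igfbp2 they were ND4 (r = 0.983), a mitochondrial gene, and Apoa1 (r = 0.959), the main protein of high-density lipoprotein. The part of hepatocyte RNA in these values was not tested.

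**Figure D3:**
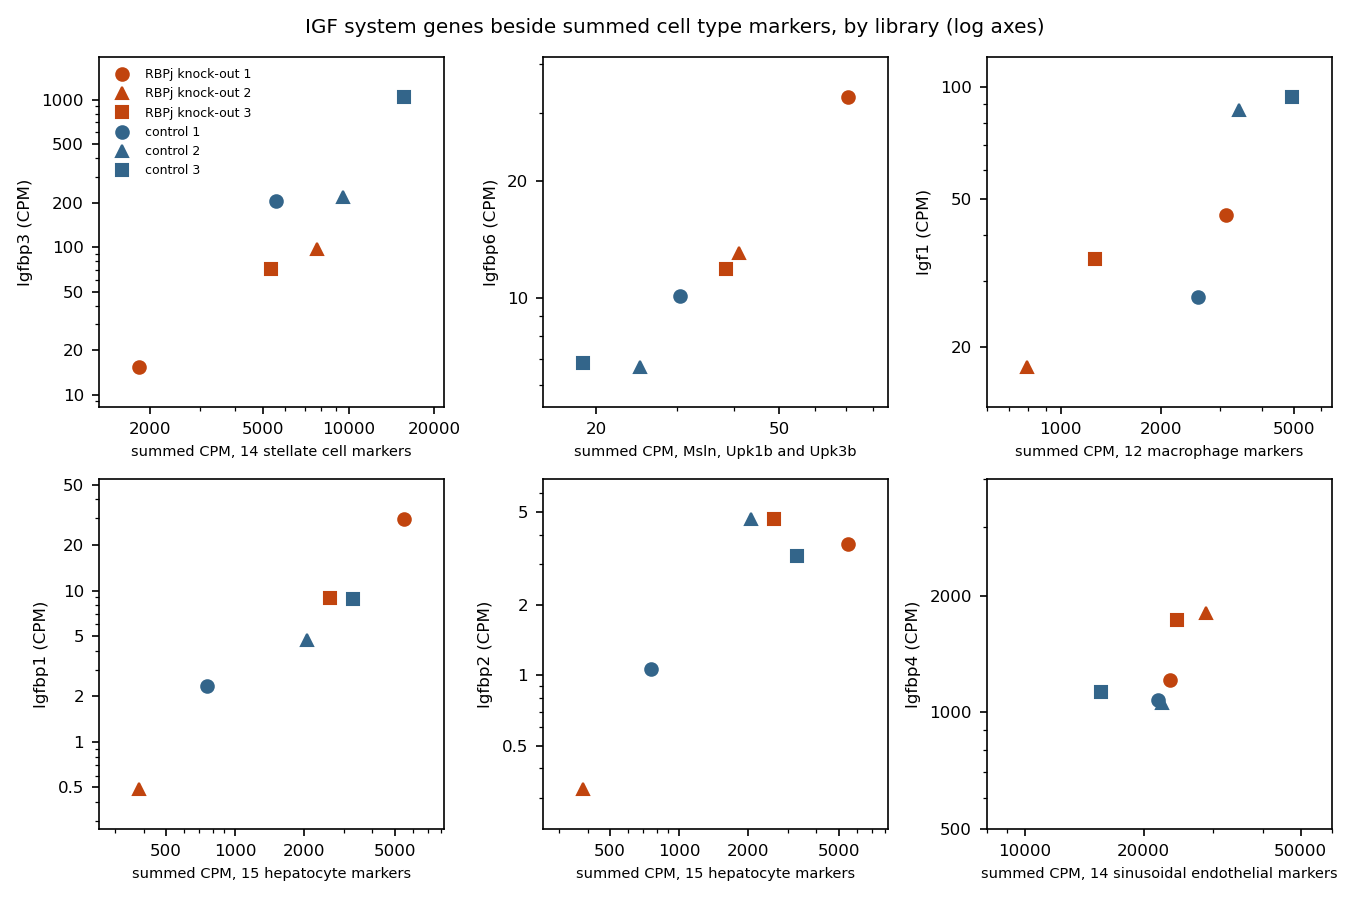
Level of 6 IGF system genes (CPM) against the summed CPM of cell type markers in the same library, both axes logarithmic, RBPj knock-outs in orange and controls in blue with a symbol for each replicate. Igfbp3 was lowest where stellate markers were lowest (1829 CPM) and Igfbp6 highest where Msln, Upk1b and Upk3b were highest (70.7 CPM), both in knock-out replicate 1.

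The sizes of the differences and their intervals can be read side by side. The intervals of Igfbp3, Igfbp4 and Igfbp6 did not reach 0, and none of the 3 held after adjustment over the tested genes in edgeR. Those of Igfbp1 and Igfbp2 allowed both a large increase and a large decrease. For Igf2r and Igfbp7 the intervals kept the difference in either direction below 1 on the log2 scale, as did those of Igf1r, Igfbp4 and Igfbp5.

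**Figure D4:**
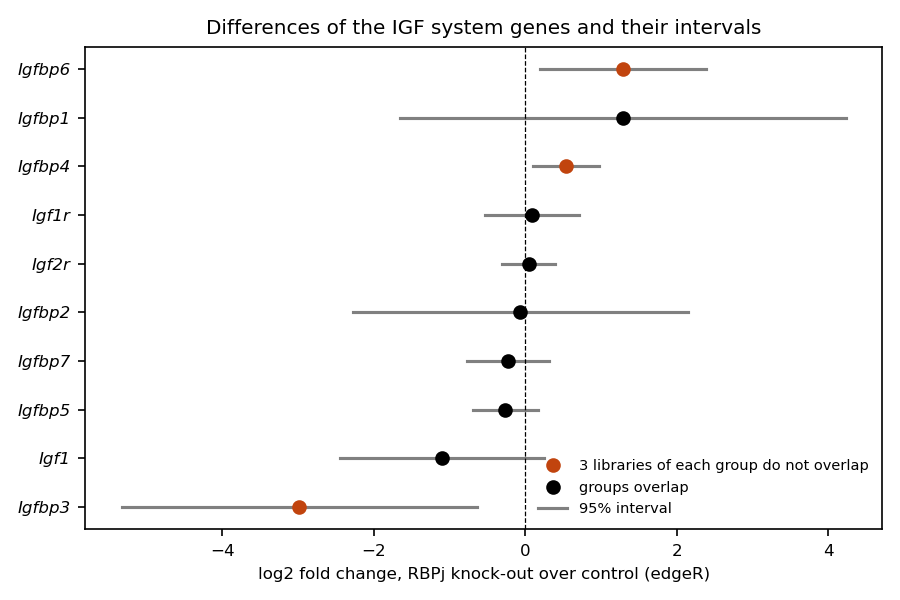
Log2 fold change of each IGF system gene, RBPj knock-out over control, with its 95% interval from edgeR (n = 3 libraries a group). Igfbp3 lay at -2.99, Igfbp4 at 0.54 and Igfbp6 at 1.29 (orange, groups without overlap), and the intervals of the other 7 genes (black) included 0.

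Downstream of the receptors, 34 of 38 listed genes of insulin and IGF receptor signalling could be tested, and 0 were called by edgeR. An unadjusted edgeR p under 0.05 was given to 3 of the 34, beside 17.5% of all tested genes. The median log2 fold change was -0.11, beside -0.03 over all genes. Grb10, which encodes an adaptor that restrains the insulin and IGF1 receptors, read 843, 560 and 581 CPM in knock-outs, against 323, 289 and 195 CPM in controls. The groups were well apart, with a log2 fold change of 1.30 ± 0.25 and an edgeR adjusted p of 0.102. Akt2, which encodes a kinase of this pathway, read 29.2, 26.7 and 22.2 CPM in knock-outs, against 43.9, 34.4 and 39.4 CPM in controls (log2 fold change -0.59, edgeR adjusted p = 0.148). Grb2, also of this list, read 115, 97.3 and 92.5 CPM in knock-outs, against 135, 123 and 117 CPM in controls (log2 fold change -0.30, edgeR adjusted p = 0.268). Insr, which encodes the insulin receptor, read 592, 170 and 131 CPM in knock-outs, against 385, 351 and 235 CPM in controls, and the groups overlapped.

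Of the proteases and partners of IGF-binding proteins, 11 of 14 could be tested and 0 were called by edgeR. An unadjusted edgeR p under 0.05 was given to 3 of the 11, beside 17.5% of all tested genes. The median log2 fold change was -0.03. Adam12, which encodes a membrane protease able to cut IGFBP3 and IGFBP5, came nearest to the threshold. It read 30.6, 37.9 and 32.9 CPM in knock-outs, against 17.0, 19.5 and 16.4 CPM in controls (log2 fold change 0.94 ± 0.13, edgeR adjusted p = 0.056). Htra1, which encodes a secreted serine protease that cuts IGF-binding proteins, read 13.6, 14.8 and 18.9 CPM in knock-outs, against 26.3, 31.1 and 47.6 CPM in controls (log2 fold change -1.15, edgeR adjusted p = 0.125). Pappa encodes the protease that releases IGF from IGFBP4, and stanniocalcins inhibit it. Pappa read 2.36, 2.37 and 1.94 CPM in knock-outs, against 1.71, 1.60 and 1.33 CPM in controls, and missed the threshold (log2 fold change 0.52, edgeR adjusted p = 0.332). Stc1, a stanniocalcin gene, read 24.9, 11.0 and 14.3 CPM in knock-outs, against 9.49, 6.16 and 5.50 CPM in controls (log2 fold change 1.25, edgeR adjusted p = 0.182). Stc2, the other stanniocalcin gene, read 34.6, 5.89 and 8.99 CPM in knock-outs and 6.50, 5.06 and 5.60 CPM in controls, and the groups overlapped (edgeR adjusted p = 0.319).

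Secreted proteins that share the IGFBP domain were also listed. Of 10 genes 7 could be tested and 0 were called by edgeR. An unadjusted edgeR p under 0.05 was given to 2 of the 7, beside 17.5% of all tested genes. A log2 fold change above 0 was found for 0 of the 7, with a median of -1.11. Over all tested genes 7114 of 15404 were above 0, with a median of -0.03. The stellate cell markers also had 0 of 14 above 0 in these libraries, with a median of -1.40, and their part in these values was not tested. Ctgf, which encodes a matrix-associated growth factor raised in fibrosis, read 196, 161 and 218 CPM in knock-outs, against 811, 302 and 270 CPM in controls (log2 fold change -1.27, edgeR adjusted p = 0.245). Control replicate 1 was the highest, and no knock-out reached the controls. Kazald1, which encodes an IGFBP-related protein of bone, read 1.54, 3.68 and 2.40 CPM in knock-outs, against 3.95, 6.25 and 9.30 CPM in controls (log2 fold change -1.35, edgeR adjusted p = 0.210).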

How the data were processed

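RNA of 6 SEC samples was sequenced, and the titles gave group and replicate. The submitters' processing notes name bcl2fastq, TopHat2 2.0.13 and mm10. The sources used here give no counting program, annotation or strand setting. The authors deposited whole-number counts per gene, with no normalization, and RPKM computed from them. RPKM equalled count over gene length and library total within 0.1%. Gene names turned into dates (27) were restored.

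Counts were tested with edgeR 4.0.16 in R 4.3.3 (glmQLFit, robust, and glmQLFTest, two-sided), with TMM normalization, filterByExpr, group as the one term and Benjamini-Hochberg adjustment over 15404 genes at 0.05. CPM were TMM-normalized, and printed RPKM were rescaled with the same factors. Intervals are 95% and come from the fit. Limits from 3 counts cover counting error only, because PCR copies were not told apart. The fit was also run on simulated counts in which the libraries did not differ in cell make-up. That run says nothing about such differences.

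The 10 genes, the gene lists and the tests were chosen with earlier results of these data known. In each list the members with the smallest p were named. Other list genes were chosen after their values were seen. Likeness is Pearson r of log2 CPM (with a prior count of 2) over 6 libraries, among genes averaging at least 4 log2 CPM. The 2 highest were named for each member. Likeness has no test, and all points share libraries and depth. The highest r among so many genes over 6 libraries can also be high by chance. Alternatives were RLE size factors, DESeq2 1.42.0, no filter, a stricter filter (10 counts in 3 libraries and a mean log2 CPM of 1), a block by replicate number, voom in limma 3.58.1 with quality weights, and leaving out each library.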

Additional observations from a re-analysis of the deposited data

How the results depend on the processing

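The number of genes called over the whole table was 30 in edgeR as reported and depended on the method: 55 with RLE size factors (RLE), 176 with no filter on low counts, 73 with the stricter filter, 489 with limma-voom and quality weights, and 872 with DESeq2 (483 higher and 389 lower). The replicate block left 3 calls. Numbers shared by both groups correlated at 0.19, 0.03 and 0.42, and not every library correlated best with its own number, so the numbers were not taken to pair the samples. Leaving out each library gave 0 to 41 calls, with 41 without knock-out replicate 1 and 0 in the other 5 fits.

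Of the 10 IGF system genes 0 were called by edgeR, in every leave-one-out fit and under the alternatives other than DESeq2, which called 1, Igfbp3 (adjusted p = 0.0468). The number of them without overlap was 3 with all libraries. When a library was left out it was 3 to 6, but smaller groups separate more readily. The share over all tested genes was not computed for those fits, so these counts cannot be compared with the 3. It was 6 without control replicate 1, where Igf1 and Igfbp7 were lower and Igf1r higher in knock-outs. For each of these genes that library was the control that had made the groups overlap. Over all alternatives the adjusted p ran from 0.0468 to 0.451 for Igfbp3, 0.0608 to 0.486 for Igfbp4 and 0.0688 to 0.427 for Igfbp6, each with its direction kept.

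Genes near 0 or with a wide spread changed sign. With limma-voom Igf2r was at -0.0851 and Igfbp1 at -0.30 on the log2 scale. Leaving out a library gave -0.0560 to 0.17 for Igf2r, -0.15 to 1.86 for Igfbp1, -0.59 to 0.46 for Igfbp2 and -0.0672 to 0.44 for Igf1r. With 3 libraries a group, a difference such as that of Igfbp1 is not detectable against its spread.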

Other observations

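Genes of the hormone axis above IGF1 and of the sorting route of the IGF2 receptor were read as well. Of 10 genes of the growth hormone receptor axis all were tested and 0 were called by edgeR. An unadjusted edgeR p under 0.05 was given to 2 of the 10, beside 17.5% of all tested genes. Socs3, which encodes an inhibitor of cytokine and growth hormone receptor signalling, read 1765, 1818 and 2372 CPM in knock-outs, against 1441, 1086 and 1111 CPM in controls (log2 fold change 0.71, edgeR adjusted p = 0.162). Ghr, which encodes the growth hormone receptor, read 34.9, 22.7 and 28.4 CPM in knock-outs, against 38.7, 35.2 and 47.5 CPM in controls (log2 fold change -0.50, edgeR adjusted p = 0.265). Of 15 genes of mannose 6-phosphate sorting 0 were called by edgeR, with 2 at an unadjusted p under 0.05, below the share over all tested genes. M6pr, which encodes the other mannose 6-phosphate receptor, read 91.6, 85.4 and 89.7 CPM in knock-outs, against 102, 128 and 124 CPM in controls (log2 fold change -0.41, edgeR adjusted p = 0.167). Snx2 went the other way, with 210, 251 and 264 CPM in knock-outs, against 193, 206 and 154 CPM in controls (log2 fold change 0.39, edgeR adjusted p = 0.265).

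Igf2bp2, which encodes a protein that binds the mRNA of IGF2, read 11.8, 8.76 and 10.1 CPM in knock-outs, against 18.2, 17.9 and 14.9 CPM in controls (log2 fold change -0.73, edgeR adjusted p = 0.125). The groups did not overlap. Esm1, which encodes a proteoglycan of endothelial tip cells, read 108, 63.9 and 64.8 CPM in knock-outs, against 517, 149 and 67.3 CPM in controls (log2 fold change -1.63, edgeR adjusted p = 0.327), with control replicate 3 between the knock-outs.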
